A study of Mus musculus with 19 samples.

Results

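Complement is represented here by 10 genes out of the 18639 gene symbols measured: the C1q chain genes C1qa, C1qb and C1qc, the C1 protease genes C1ra and C1s1, the components C2, C4b and C3, and the anaphylatoxin receptors C3ar1 and C5ar1. Their rows were taken from the table by gene symbol, and all 10 were found and passed the filter on low values. RNA was sequenced from mouse cochlear cells sorted by FACS into GFP-positive cells, labelled macrophages, and GFP-negative cells, labelled nonmacrophages. All mice, of both ages, were heterozygous CX3CR1 GFP/+ knock-ins, so GFP marks cells with an active Cx3cr1 gene, and every group carries only 1 intact copy of that gene. The whole-cochlea groups were old macrophages and old nonmacrophages at 12 to 14 months (4 libraries each), and young macrophages (2 libraries) and young nonmacrophages (4 libraries) at 1.5 months. At 1.5 months there was also 1 macrophage and 1 nonmacrophage library each from the auditory nerve and from the lateral wall, and 1 unsorted whole cochlea. Each isolate came from 1 mouse. The labels used here do not tell which macrophage and nonmacrophage libraries shared a mouse.

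Complement is a cascade of plasma and tissue proteins that tags debris, microbes and synapses for removal. In the classical pathway C1q, built of A, B and C chains, binds a target and activates the serine proteases C1r and C1s, which cleave C4 and C2 to form the enzyme that cleaves C3. Fragments of C3 and C5 signal through the receptors C3aR and C5aR1, and in the brain microglia are known as a main source of C1q.

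The 3 C1q chain genes lie next to each other on the minus strand of mouse chromosome 4 (mm10): C1qb at chr4:136880129-136886187, C1qc at chr4:136889804-136893065 and C1qa at chr4:136895917-136898803. C1ra (chr6:124512405-124523443, plus strand) and C1s1 (chr6:124530345-124542359, minus strand) are also near each other, and C3ar1 lies on the same chromosome (chr6:122847138-122856161, minus strand). C4b (chr17:34728380-34743882), C2 (chr17:34862604-34898265) and C3 (chr17:57203970-57228136) are on the minus strand of chromosome 17, and C5ar1 (chr7:16246743-16259540) is on the minus strand of chromosome 7. Promoter sequences from RefSeq (GRCm38.p6) were matched for 7 of the 10 genes. The 250 bases before the RefSeq start are printed for 1 gene of each of 3 roles: a C1q chain gene, a C1 protease gene and the central component. All are on the minus strand and read 5′ to 3′ toward the start, at chr4:136886201-136886450 for C1qb, chr6:124542360-124542609 for C1s1 and chr17:57228137-57228386 for C3. Capitals mark GAGGAA, the core letters bound by the myeloid transcription factor PU.1.
C1qb: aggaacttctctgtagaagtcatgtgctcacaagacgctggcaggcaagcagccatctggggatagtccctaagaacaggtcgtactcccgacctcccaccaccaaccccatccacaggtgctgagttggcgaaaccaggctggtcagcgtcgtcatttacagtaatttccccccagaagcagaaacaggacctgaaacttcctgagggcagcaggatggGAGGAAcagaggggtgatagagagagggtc
C1s1: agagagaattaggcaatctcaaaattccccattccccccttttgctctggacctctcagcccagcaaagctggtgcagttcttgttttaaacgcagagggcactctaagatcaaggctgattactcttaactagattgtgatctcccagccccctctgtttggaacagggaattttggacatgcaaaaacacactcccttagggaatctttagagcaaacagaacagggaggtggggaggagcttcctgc
C3: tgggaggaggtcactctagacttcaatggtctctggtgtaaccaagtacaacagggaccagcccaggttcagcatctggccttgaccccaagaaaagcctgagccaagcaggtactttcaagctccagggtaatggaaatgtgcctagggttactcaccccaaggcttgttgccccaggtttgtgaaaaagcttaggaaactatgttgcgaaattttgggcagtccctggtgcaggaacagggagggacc
On either strand of the 250 bases before the start, GAGGAA was found in 2 of the 7 genes. These were C1qb (30 bases before the start) and C1qc (193 bases before it), against 23.3% of 32817 promoter windows searched over the same length. The receptor genes C3ar1 and C5ar1 had no match. The AP-1 letters TGANTCA occurred once, in C3ar1 (6.8% of all windows). Neither the STAT letters TTCNNNGAA (7.0% of windows) nor the interferon-stimulated response element (3.0%) occurred in any of the 7. A match describes letters, not binding.

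Values are normalized reads, that is, read counts divided by 1 factor per library. Libraries held 20.6 to 71.6 M reads. Old libraries held 50.6 to 71.6 M. Sorted young whole-cochlea libraries held 24.9 to 35.1 M, except young nonmacrophage replicate 14 with 60.2 M. Depth and age therefore cannot be told apart for most libraries. The young macrophage libraries had reads for 11652 and 13532 genes, fewer than the 16750 to 17282 genes of the old macrophage libraries. Of 7 macrophage markers measured, 6 were higher in macrophages at both ages. The 5 neuronal markers were also higher in macrophages at both ages (summed level 221608 to 252175 in old macrophages and 6152 to 11503 in old nonmacrophages). All 6 fibroblast, 5 Schwann and glial and 4 osteoblast markers, and 5 of 7 neutrophil markers, were lower in macrophages at both ages. Of 5 endothelial markers 3 were lower in old macrophages and none in young, of 5 pericyte and smooth muscle markers 2 and 1 were lower, of 5 T and NK cell markers 1 was higher in young macrophages, and none of 3 monocyte and 2 mast cell markers passed the test at either age.

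All 3 C1q chain genes were far higher in macrophages than in nonmacrophages. In old cochlea C1qa had 34154, 42895, 38102 and 26912 normalized reads in macrophages, against 107, 155, 301 and 329 in nonmacrophages. In young cochlea it had 87249.9 and 106779 in macrophages, against 117, 49.0, 176 and 22.5 in nonmacrophages. Every macrophage library exceeded every nonmacrophage library by a wide margin at both ages. The fitted difference of C1qa, on the log2(value + 1) scale of limma, was 7.43 (SE 0.55, 173-fold, adjusted p = 3.6e-06) in old cochlea. In young cochlea it was 10.42 (SE 0.67, 1370-fold, adjusted p = 1.7e-07). In these bulk samples fewer cells of a type and less RNA per cell cannot be told apart.

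C1qb and C1qc, the other chains of the same protein, followed the same order. C1qb averaged 56746 ± 13372 normalized reads in macrophages of old cochlea, against 374 ± 198 in nonmacrophages (SD, n = 4 each). The corresponding means of C1qc were 52478 ± 11570 for macrophages and 323 ± 156 for nonmacrophages (SD, n = 4 each). Their log2 differences in old cochlea were 7.39 (SE 0.80) and 7.45 (SE 0.37), with limma adjusted p = 4.9e-05 and 2e-07. In young cochlea C1qb had 267900 and 256996 in macrophages, against 124, 23.2, 845 and 85.0 in nonmacrophages. The young nonmacrophage library with 845, replicate 6, stood far above the other three but far below the macrophages. C1qc had 165314 and 207482 in young macrophages, against 251, 104, 209 and 137 in young nonmacrophages. The young log2 differences were 11.07 (SE 0.98, adjusted p = 2.2e-06) for C1qb and 10.12 (SE 0.45, adjusted p = 1.5e-08) for C1qc. With library quality weights C1qb did not pass in young cochlea (adjusted p = 0.067).

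**Figure D1:**
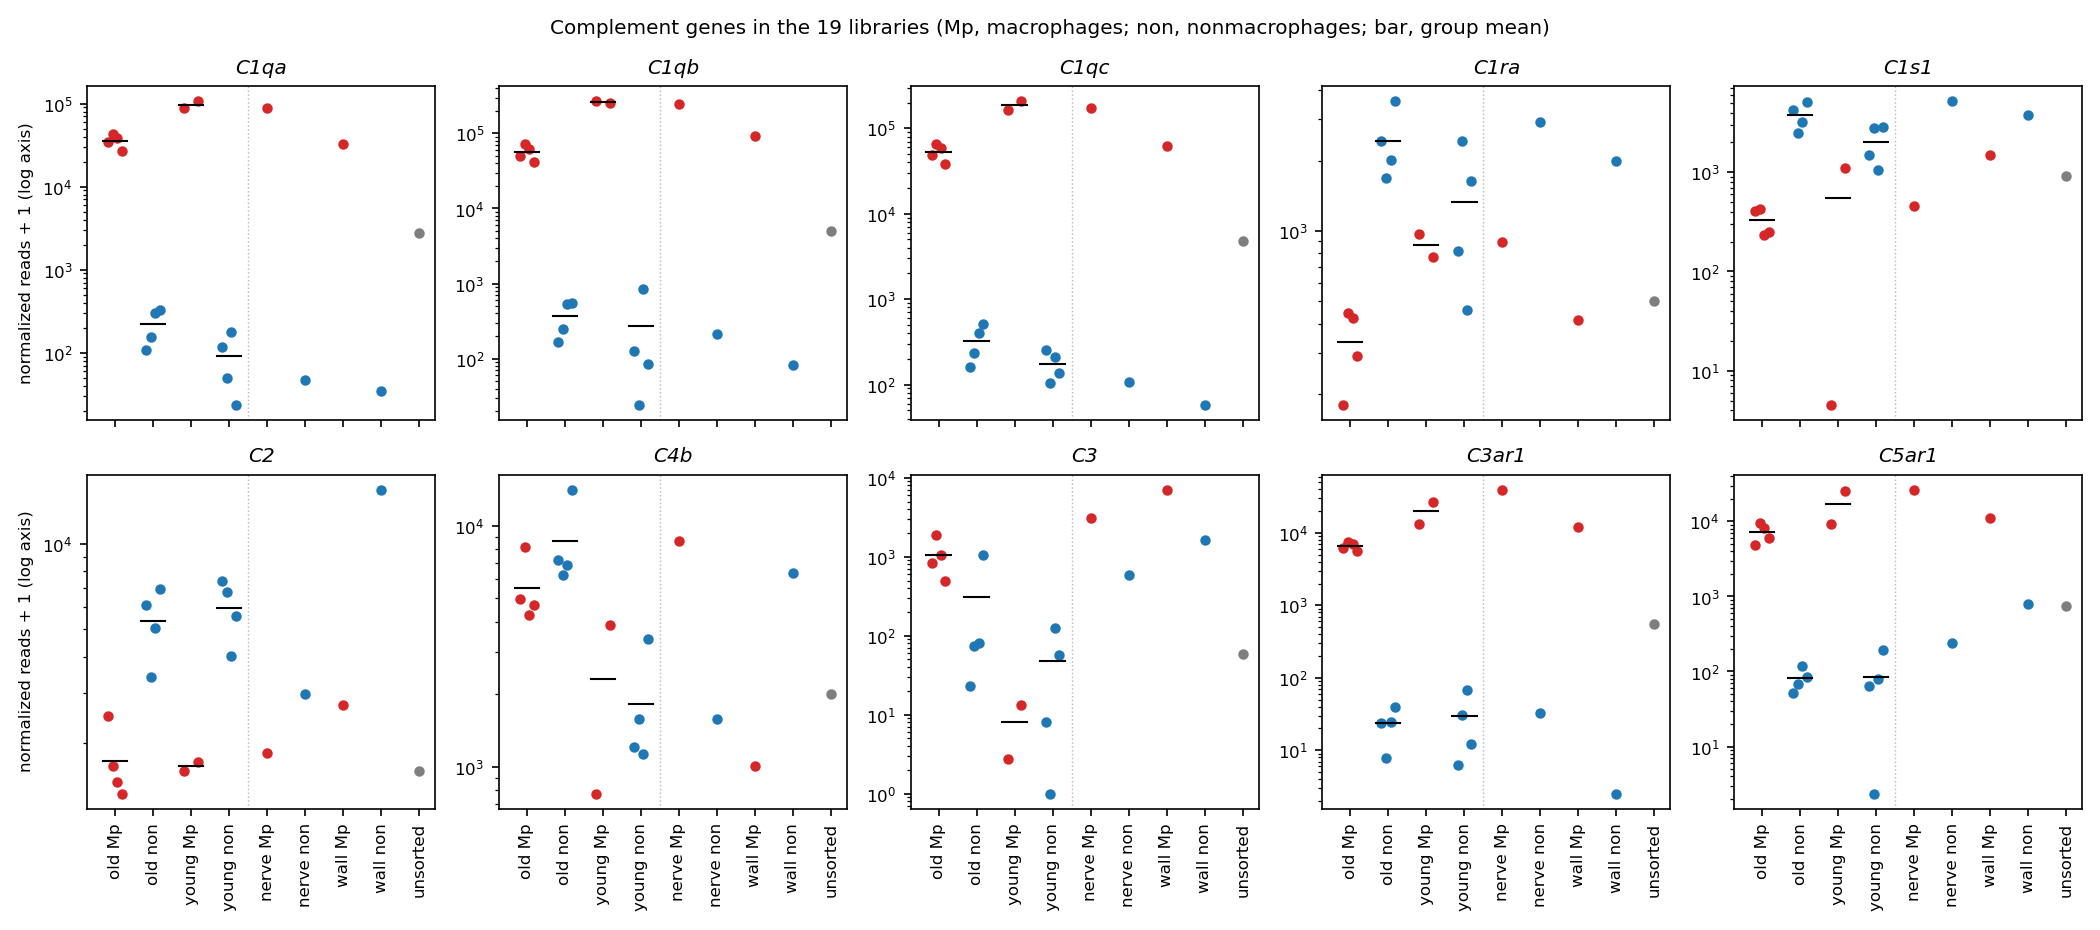
Normalized reads + 1 (vertical log axis) of each complement gene in the 19 libraries, by group along the horizontal axis, macrophages in red, nonmacrophages in blue and the unsorted cochlea in grey. Each point is 1 library, bars are group means, and the dotted line divides whole-cochlea sorts from single libraries. The C1q genes and both receptor genes are high in every macrophage library, while C2 is lower in macrophages than in nonmacrophages of the same tissue throughout.

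Together the 3 C1q genes took 0.333% to 0.541% of all reads in old macrophage libraries and 0.00129% to 0.00392% in old nonmacrophage libraries. In young whole cochlea they took 1.17% and 1.44% in macrophages, and 0.000509% to 0.00303% in nonmacrophages. The unsorted young cochlea had 0.0399% (95% Wilson interval 0.0390% to 0.0408%), between the sorted fractions. These intervals cover counting error only.

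The ratio of reads between the chains had no overlap between old and young macrophages, though no test of it passed. C1qb over C1qa was 1.48, 1.68, 1.65 and 1.55 in old macrophages, against 3.07 and 2.41 in young macrophages. C1qc over C1qa was 1.41 to 1.53 in old macrophages, against 1.89 and 1.94 in young macrophages. The young auditory nerve and lateral wall macrophages, with 2.77 and 2.80 for C1qb over C1qa and 1.92 and 1.89 for C1qc over C1qa, lay with the young whole-cochlea macrophages. The two-sided exact permutation p, taken as 2 times the one-sided p, was 0.133 for both ratios (adjusted p = 0.549 over 16 ratio comparisons). Computed in that way, a comparison of 4 libraries against 2 cannot give less. Old nonmacrophages had ratios of C1qb over C1qa of 1.53 to 1.78, overlapping old macrophages, and young nonmacrophages ran from 0.472 to 4.80 on far fewer reads.

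**Figure D2:**
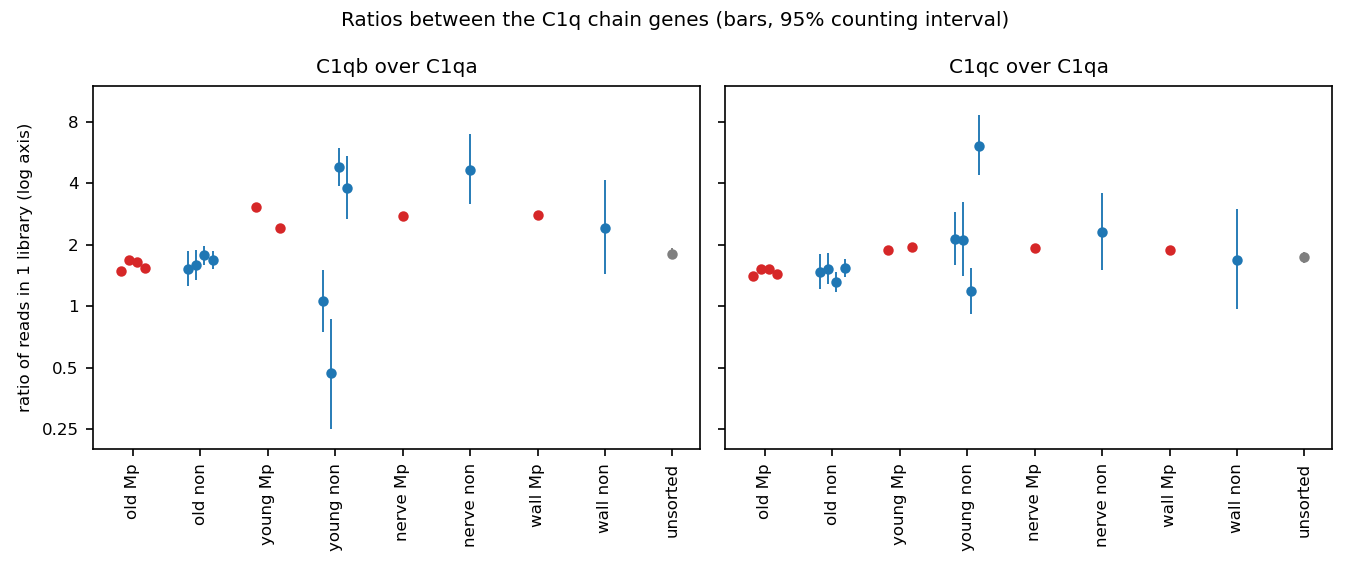
Ratios of C1qb to C1qa (left) and C1qc to C1qa (right) within each library (vertical log axis), by group along the horizontal axis, macrophages in red and nonmacrophages in blue. Bars are 95% counting intervals. Old macrophages sit at 1.48 to 1.68 for C1qb over C1qa, below the young macrophages at 2.41 and 3.07.

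The C1 protease genes showed the opposite order in old cochlea. C1ra, which encodes the protease that activates C1s, had 178, 442, 420.2 and 290.2 normalized reads in old macrophages, against 2433, 1688, 2001 and 3589 in old nonmacrophages. The groups did not overlap, and the log2 difference was -2.89 (SE 0.49, 95% interval -3.95 to -1.84, limma adjusted p = 0.0012). In young cochlea C1ra had 964 and 773 in macrophages, against 818, 2426, 457 and 1634 in nonmacrophages. These young groups overlapped, and the difference did not pass the test (log2 -0.35, 95% interval -1.65 to 0.94, adjusted p = 0.69). The change of the sort difference with age for C1ra was -2.54 (SE 0.77) and did not pass either (adjusted p = 0.065), though it did with DESeq2 (adjusted p = 0.025).

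C1s1, which encodes the protease that cleaves C4 and C2, was split by 1 library. It had 405, 421, 234 and 246 in old macrophages, against 4273, 2514, 3195 and 5103 in old nonmacrophages. The old groups did not overlap, yet the log2 difference of -3.53 (SE 1.16) narrowly missed the threshold (limma adjusted p = 0.051). It passed with either count test, at adjusted p = 0.018 with edgeR and 0.00044 with DESeq2. In young cochlea it had 3.51 (2 reads) and 1097 in macrophages, against 1486, 2788, 1046 and 2829 in nonmacrophages. The young macrophage library with 2 reads, replicate 9, was the one with the fewest genes, and replicate 15 overlapped the nonmacrophages. The young log2 difference was -4.73 (SE 1.43, adjusted p = 0.024), and without replicate 9 it was -0.77 (adjusted p = 0.36). It did not pass with edgeR, where it was -1.88 (adjusted p = 0.23), or with DESeq2, where it was -1.86 (adjusted p = 0.16).

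The ratio of C1s1 to C1ra reads stayed between 1.42 and 1.76 in old nonmacrophages and 1.15 and 2.29 in young nonmacrophages. Among macrophages it was more scattered, 0.556 to 2.27 in old libraries. The summed level of the fibroblast markers was 6262 to 9613 in old macrophages and 73404 to 91414 in old nonmacrophages, and 5271 and 12269 in young macrophages against 82605 to 171114 in young nonmacrophages. All 6 markers were lower in macrophages at both ages, and Col1a1 was at 0 in both young macrophage libraries. Among young nonmacrophages replicate 6 had the highest fibroblast sum and the lowest C1ra and C1s1. The part of fibroblasts in the protease levels was not tested. Counts of C1ra and C1s1 are uncertain to the extent that reads were split with their near-identical copies C1rb and C1s2, which averaged at most 14.8 normalized reads in any whole-cochlea sort. C1s1 also overlaps an antisense gene, Gm16567, and because the library preparation does not mark strand, reads of the pair cannot be told apart.

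C2, the serine protease component of the C3-cleaving enzyme, was lower in macrophages at both ages by a similar amount. It had 2487, 1657, 1460 and 1328 normalized reads in old macrophages, against 6099, 3414, 5046 and 6908 in old nonmacrophages. Young cochlea showed 1597 and 1711 in macrophages, against 7373, 6754, 4024 and 5559 in nonmacrophages. The groups did not overlap at either age. The log2 difference was -1.63 (SE 0.28, limma adjusted p = 0.0013) in old and -1.80 (SE 0.34, adjusted p = 0.0013) in young cochlea, where it did not pass with library quality weights (adjusted p = 0.68). Its change with age was 0.18 (95% interval -0.76 to 1.12, adjusted p = 0.85). The annotated span of C2 overlaps Gm20547 on the same strand and Zbtb12 on the other, so reads could be shared.

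C4b, which encodes complement component 4, showed no sort difference that passed. It had 4959, 8202, 4248 and 4719 in old macrophages, against 7227, 6250.4, 6912 and 14159 in old nonmacrophages. The young libraries had 772 and 3863 in macrophages, against 1202, 1572, 1129 and 3377 in nonmacrophages. The groups overlapped at both ages. The log2 difference was -0.61 (95% interval -1.66 to 0.44, limma adjusted p = 0.46) in old and 0.08 (95% interval -1.21 to 1.36, adjusted p = 0.96) in young cochlea. Its near-identical copy C4a averaged 4.32 to 14.8 normalized reads in the whole-cochlea sorts, and reads could be split between the copies.

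C3, the component on which the pathways converge, was at or below 124 normalized reads in every sorted whole-cochlea library other than the 4 old macrophage libraries and 1 old nonmacrophage library. It had 840, 1879, 1060.2 and 485 in old macrophages, against 22.1, 73.6, 80.1 and 1043 in old nonmacrophages. The single high nonmacrophage library, replicate 19, overlapped the macrophages, and the log2 difference of 3.11 (SE 1.45) did not pass (limma adjusted p = 0.17). It passed under quantile normalization (adjusted p = 0.046), with library quality weights (adjusted p = 0.0075) and with only the groups compared (adjusted p = 0.018). In young cochlea C3 had 1.76 (1 read) and 12.4 (11 reads) in macrophages, against 7.11, 0, 124 and 55.6 in nonmacrophages. The young groups overlapped near the detection limit, and no difference passed (log2 -1.35, 95% interval -5.19 to 2.49, adjusted p = 0.60). A count of 0 in that nonmacrophage library, replicate 5, allows up to 4.09 normalized reads.

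The anaphylatoxin receptor genes sided with C1q. C3ar1, the receptor of the C3a fragment, had 6136, 7404, 7131 and 5626 normalized reads in old macrophages, against 22.8, 6.88, 23.9 and 38.4 in old nonmacrophages. In young cochlea it had 13238 and 27122 in macrophages, against 5.33, 30.0, 66.9 and 11.2 in nonmacrophages. Of the 10 genes it had the largest log2 difference in old cochlea, 8.30 (SE 0.72, 316-fold, limma adjusted p = 1.1e-05), with 9.88 (SE 0.88, adjusted p = 2.3e-06) in young cochlea.

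C5ar1, the receptor of the C5a fragment, had 4830.4, 9510.3, 8189.7 and 6018 in old macrophages, against 51.0, 67.4, 118 and 84.5 in old nonmacrophages. Young macrophages had 9336 and 25060.3, against 64.0, 1.36 (1 read), 78.3 and 195 in young nonmacrophages. Macrophages were higher without overlap at both ages, by 6.47 (SE 1.03, adjusted p = 0.00083) in old and 8.60 (SE 1.26, adjusted p = 0.00019) in young cochlea on limma's log2 scale. Neutrophils also carry C5aR1, and the neutrophil marker sum was 4.49 to 263 in old macrophages and 1683 to 9196 in old nonmacrophages. The young nonmacrophage library with 1 C5ar1 read, replicate 5, had a neutrophil sum of 6.81. Replicates 2, 6 and 14 had sums of 28572, 39933 and 17242, with 64.0, 78.3 and 195 normalized reads of C5ar1. The part of neutrophils in these levels was not tested. The ratio of C3ar1 to C5ar1 was 0.779 to 1.27 in old macrophages, against 0.102 to 0.455 in old nonmacrophages. For that ratio the two-sided exact permutation p was 0.0286, the smallest that 4 against 4 allows, and 0.457 after adjustment over the 16 ratio comparisons. With library quality weights neither C3ar1 (adjusted p = 0.084) nor C5ar1 (adjusted p = 0.13) passed in young cochlea.

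Over the 10 genes, 5 were higher and 2 lower in old macrophages than in old nonmacrophages. Of all 18441 genes tested 9.25% were higher and 9.36% lower. In young cochlea 5 were also higher and 2 lower, where 9.18% of all genes were higher and 22.3% lower. The 5 higher genes, the C1q chains and the receptors, passed at both ages. Of the lower ones C2 passed at both ages, C1ra in old and C1s1 in young cochlea. The median log2 difference of the 10 genes was 4.79 in old and 4.34 in young cochlea, beside -0.19 and -0.61 over all genes tested. Groups did not overlap for 5 genes higher and 3 lower in old macrophages, where 23.3% and 30.0% of all genes had such an order. In young macrophages this held for 5 higher and 1 lower, against 10.5% and 18.6% of all genes.

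**Figure D3:**
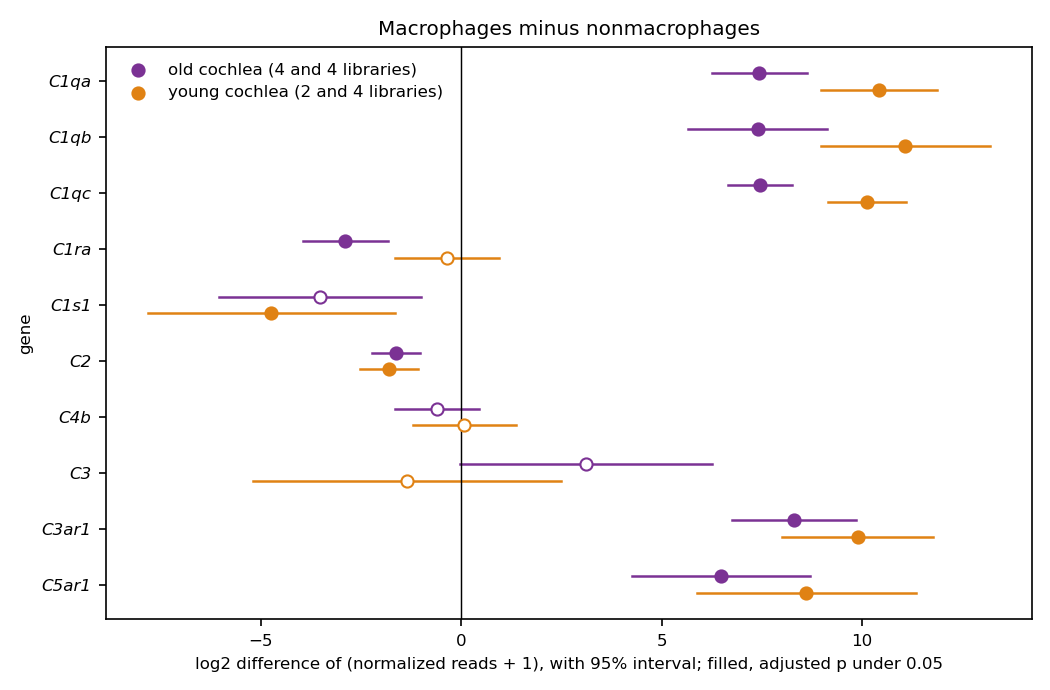
Log2 difference of macrophages minus nonmacrophages (horizontal axis, on normalized reads + 1) for each complement gene, with 95% intervals, in old (purple) and young (orange) cochlea. Filled points passed limma's adjusted threshold of 0.05. The C1q chains and receptors lie between 6.47 and 11.07, C2 lies below 0 at both ages, and C4b lies near 0.

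Levels between genes can be ordered only per length. In old macrophages, per kb of exon, mean normalized reads were 52156 for C1qb, 34150 for C1qa and 27177 for C1qc. Their library ranges overlapped from each to the next, but this order held within every library. C5ar1 (2777 per kb) came next and did not overlap C3ar1 (1527 per kb), which overlapped C4b (971 per kb) but exceeded it within every library. C2 (448 per kb) lay below C4b without overlap. C3 (207 per kb), C1ra (112 per kb) and C1s1 (104 per kb) followed, each overlapping the gene before it. C3 was below C2 within every library, while the order of C3, C1ra and C1s1 varied between libraries. In old nonmacrophages the order began with C4b (1517 per kb), C2 (1386 per kb), C1s1 (1205 per kb) and C1ra (814 per kb), whose ranges overlapped each other. Within every library C2 exceeded C1s1 and C1s1 exceeded C1ra, while the order of C4b and C2 varied. It ended with C5ar1 (31.2 per kb) and C3ar1 (5.34 per kb), which did not overlap. In young nonmacrophages C2 (1531 per kb) was first without overlap. C1s1 (651 per kb), C1ra (447 per kb) and C4b (320 per kb) followed by mean, with ranges that overlapped each other. C1s1 exceeded C1ra and C4b within every library, while the order of C1ra and C4b varied.

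Between old and young macrophages C1qc and C3 passed the test, in opposite directions. C1qc was lower in old macrophages, where it had 48235, 64909.6, 58270.5 and 38497, against 165314 and 207482 in young macrophages. The old libraries all lay far below the young whole-cochlea ones, with a log2 difference of -1.85 (SE 0.45, 0.278-fold, limma adjusted p = 0.0091). The young auditory nerve macrophages had 171577 of C1qc, but the young lateral wall macrophages had 61977, within the old range. Wall macrophages also had C1qa within its old range (32757.5) and C1qb above its old range (91853.6). C1qa (log2 -1.46, 95% interval -2.91 to -0.01, adjusted p = 0.11) and C1qb (log2 -2.24, 95% interval -4.35 to -0.13, adjusted p = 0.097) did not pass, although neither overlapped between the ages. C1qc did not pass under quantile normalization (log2 -1.09, adjusted p = 0.17) or with library quality weights (adjusted p = 0.89). The summed level of the macrophage markers was 68820 to 110404 in old and 127098 and 304583 in young macrophages. None of the 7 markers passed the test between these groups, and the part of their level in the C1q levels was not tested.

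C3 was higher in old macrophages, with the 4 values of 485 to 1879 given above, against 1 and 11 reads in the young libraries. The log2 difference was 7.29 (SE 1.78, 95% interval 3.45 to 11.13, adjusted p = 0.0089), a size that depends on the pseudocount because the young values are so low. It did not pass without young macrophage replicate 9 (adjusted p = 0.061), under quantile normalization (log2 3.35, adjusted p = 0.15) or with library quality weights (adjusted p = 0.78). The young auditory nerve and lateral wall macrophages held 3088 and 7073 normalized reads of C3, more than any old whole-cochlea macrophage library. With those pooled into the young group the difference was 2.49 (adjusted p = 0.49).

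The other 6 genes had no difference that passed between old and young macrophages. C4b was higher in every old than young library (log2 1.63, adjusted p = 0.054) and passed under quantile normalization (adjusted p = 0.041). C1ra (log2 -1.46, adjusted p = 0.080), C3ar1 (log2 -1.54, adjusted p = 0.20) and C5ar1 (log2 -1.15, adjusted p = 0.51) had lower fitted values in old macrophages. For C2 the difference was 0.02 (95% interval -0.70 to 0.75, adjusted p = 0.98). C1s1 rested on single libraries: it was -1.80 (adjusted p = 0.034) without young replicate 9 and 6.13 (adjusted p = 1.1e-06) without young replicate 15.

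Of the 10 genes 1 was higher and 1 lower in old macrophages, beside 24.1% and 5.57% of all genes tested. Their median difference was -1.30, beside 0.88 over all genes. That shift over all genes was -0.07 under quantile normalization and 1.15 with libraries scaled to a common total. Groups did not overlap for 2 genes higher (C3 and C4b) and 5 lower (the C1q chains, C1ra and C3ar1), an order that 31.7% and 13.4% of all genes showed. Beside these, 4 of 5 Schwann and glial markers, 2 of 6 fibroblast markers and 1 of 4 osteoblast markers were higher, and 4 of 5 T and NK cell, 2 of 5 endothelial and 2 of 5 pericyte and smooth muscle markers lower, in old macrophages. No macrophage, neuronal, neutrophil, monocyte or mast cell marker passed. The part of any of these cell types in the age differences was not tested.

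**Figure D4:**
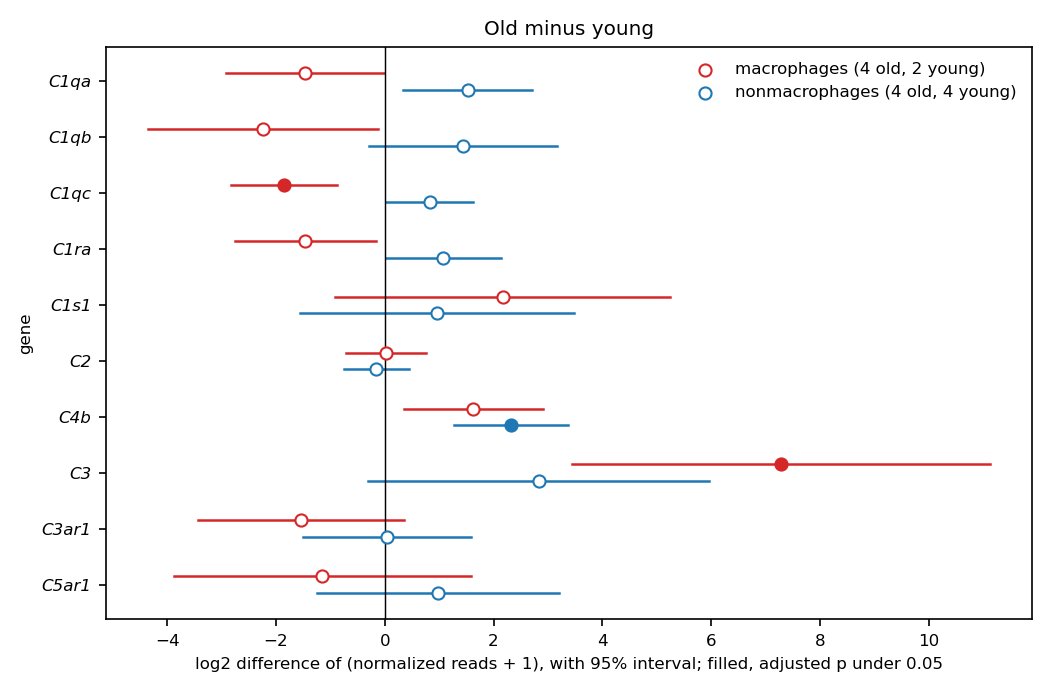
Log2 difference of old minus young (horizontal axis, on normalized reads + 1) for each complement gene, with 95% intervals, in macrophages (red) and nonmacrophages (blue). Filled points passed limma's adjusted threshold of 0.05. In macrophages C1qc (-1.85) and C3 (7.29) passed, and in nonmacrophages C4b (2.31).

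In nonmacrophages C4b was the only 1 of the 10 genes that differed by age. The old libraries had 7227, 6250.4, 6912 and 14159 and the young ones 1202, 1572, 1129 and 3377. The ages did not overlap, and the log2 difference was 2.31 (SE 0.48, 4.97-fold, limma adjusted p = 0.032). The most deeply sequenced young library, replicate 14 with 60.2 M reads, had the highest young value. The call ended with edgeR (log2 2.23, adjusted p = 0.096), with library quality weights (adjusted p = 0.054), with the nerve and wall libraries pooled in (adjusted p = 0.12) and without any 1 of the old replicates 10, 11, 18 and 19 or the young replicates 2, 5 and 6 (adjusted p = 0.066 to 0.11). For the other 9 genes the log2 differences ran from -0.15 for C2 to 2.83 for C3, with adjusted p of 0.14 or more. One gene higher and none lower compares with 1.64% and 0.0813% of all genes tested, and the median over the 10 genes was 1.03, beside 0.39 over all genes. C4b was also the 1 gene of the 10 without overlap, all old libraries being higher, an order that 12.0% of all genes showed (5.39% had all old libraries lower).

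The sort difference itself changed with age for C1qc. It was smaller in old than in young cochlea with a log2 difference between the ages of -2.67 (SE 0.58, limma adjusted p = 0.011). C1qa (-2.99, SE 0.87, adjusted p = 0.053) and C1qb (-3.68, SE 1.26, adjusted p = 0.10) did not pass. Among all genes 6.98% had a larger and 0.954% a smaller sort difference in old cochlea, and the medians were -1.85 for the 10 genes and 0.46 over all. The call on C1qc ended under quantile normalization (-1.67, adjusted p = 0.22) and with library quality weights (adjusted p = 0.98). The sort difference was also smaller in old cochlea for 2 of 7 macrophage, 1 of 5 T and NK cell and 1 of 5 endothelial markers, and larger for 3 of 6 fibroblast, 2 of 5 Schwann and glial and 1 of 4 osteoblast markers, and 2 of 7 macrophage markers were higher in old than in young nonmacrophages. Their part in the C1qc result was not tested. The age comparisons share libraries with the sort comparisons, so the same values enter several of them.

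In the substructures of young cochlea, each with 1 macrophage and 1 nonmacrophage library and so with no replicate check, the order of C1q and the receptors was the same. C1qa had 89270.3 in auditory nerve macrophages and 46.2 in nerve nonmacrophages, and 32757.5 in lateral wall macrophages and 33.6 in wall nonmacrophages. C3ar1 had 39575 in nerve macrophages and 32.2 in nerve nonmacrophages. In the lateral wall it had 12084 in macrophages and 1.53, 1 read, in nonmacrophages, a ratio of 7902 with a 95% counting interval of 1418 to 312147. C5ar1 was 111-fold higher in nerve macrophages but 13.9-fold in wall macrophages, where the nonmacrophages held 794 normalized reads. The wall nonmacrophage library had a neutrophil marker sum of 103466, beside 42463 in nerve nonmacrophages, whose part in the C5ar1 level was not tested.

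C4b pointed in opposite directions in the substructures. It had 8693 in nerve macrophages and 1576 in nerve nonmacrophages (5.52-fold, 95% counting interval 5.17 to 5.89), and 1006 in wall macrophages and 6397 in wall nonmacrophages (0.157-fold, 0.145 to 0.171). In wall macrophages the copy C4a had 161 normalized reads, so that C4b over C4a was 6.26 there, against 1046 in wall nonmacrophages. C2 had its highest value of all 19 libraries in wall nonmacrophages, 15455, against 2716 in wall macrophages. In the nerve C2 had 1845 in macrophages and 2980.3 in nonmacrophages. C3 was higher in macrophages of both substructures, with 3088 and 583 in nerve macrophages and nonmacrophages (5.29-fold) and 7073 and 1630.2 in those of the wall (4.34-fold).

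C1ra had 897 in nerve macrophages and 2923 in nerve nonmacrophages, and 415 in wall macrophages and 1993 in wall nonmacrophages. C1s1 had 453 in nerve macrophages and 5204 in nerve nonmacrophages, and 1483 in wall macrophages and 3791 in wall nonmacrophages. Both protease genes were thus lower in the macrophage library of each pair. Past 1 log2 unit, 7 of the 10 genes were higher and 2 lower in nerve macrophages, beside 19.9% and 32.1% of all genes. In wall macrophages 6 were higher and 4 lower, beside 16.2% and 27.0%. Between the substructures, nerve macrophages exceeded wall macrophages past 1 log2 unit for 7 genes (C1qa by 2.73-fold, C4b by 8.64-fold), beside 19.2% of all genes. C1s1 and C3 were lower in nerve macrophages past that size, beside 16.8%. In nerve against wall nonmacrophages 2 genes were higher and 4 lower (C2, C4b, C3 and C5ar1), beside 18.7% and 15.3% of all genes.

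In the unsorted young cochlea C1qa had 2769, C1qb 5012, C1qc 4798, C3ar1 552 and C5ar1 735 normalized reads. Each of these lay between the young nonmacrophages and the young macrophages, at 1.91% to 4.28% of the young macrophage mean. C2, with 1593, lay just below every sorted young whole-cochlea library. C1ra (498), C4b (2002) and C3 (58.1) lay within the range of the young nonmacrophages, and C1s1 (927) lay below it.

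The complement system beyond these 10 genes was followed with a list of 50 other genes, of which 43 were in the table and 42 were tested. In old cochlea 10 were higher and 5 lower in macrophages, where 9.25% and 9.36% of all genes tested were. In young cochlea 6 were higher and 4 lower, where 9.18% and 22.3% of all genes were. Of 8 other receptors measured, 5 were higher in old and 3 in young macrophages. The integrin chains of complement receptor 3, Itgam (log2 6.08, limma adjusted p = 0.003, in old cochlea) and Itgb2 (5.24, adjusted p = 0.0045), and the second C5a receptor C5ar2 (4.93, adjusted p = 0.0017) were higher at both ages. Itgax, the alpha chain of complement receptor 4 (4.74, adjusted p = 0.043), and Vsig4, a receptor of C3 fragments on tissue macrophages (4.27, adjusted p = 0.027), passed in old cochlea.

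Of 8 lectin pathway genes measured, 2 were higher and 1 lower in old macrophages and 1 was higher and 1 lower in young ones. The soluble lectin ficolin A, Fcna, averaged 757 ± 227 in macrophages of old cochlea, against 9.49 ± 5.48 in nonmacrophages (SD, n = 4 each; log2 6.31, adjusted p = 0.0045), and was higher in young macrophages too (6.83, adjusted p = 0.0058). Mbl2, a mannose-binding lectin, was higher in old macrophages (4.03, adjusted p = 0.00012) at the low mean of 25.7 normalized reads, and Colec12, a membrane collectin, was lower (-2.47, adjusted p = 0.0009). Colec11, a soluble collectin, was lower in young macrophages (-4.92, adjusted p = 0.038). The 1 alternative pathway gene measured, the properdin gene Cfp, whose product stabilizes the C3-cleaving enzyme, was higher at both ages (4.14, adjusted p = 0.0008, in old and 5.36, adjusted p = 0.00023, in young cochlea).

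Of 8 fluid-phase regulators 3 were lower in old and 2 in young macrophages, and none was higher. Serping1, the inhibitor of C1r and C1s, averaged 1393 ± 255 in macrophages of old cochlea, against 17042 ± 2820 in nonmacrophages (SD, n = 4 each; log2 -3.62, adjusted p = 5.1e-06), and was lower in young macrophages as well (-2.30, adjusted p = 0.00023). Clu, the clusterin gene, was lower at both ages (-2.31, adjusted p = 4.3e-05, in old and -1.74, adjusted p = 0.00071, in young cochlea). Vtn, the vitronectin gene, was lower in old cochlea (-1.68, adjusted p = 0.018). Of 9 membrane regulators tested, Susd4 was higher at both ages and Csmd2 in old cochlea. Susd4 averaged 3460 in old and 1754 in young macrophages. It had 4003 in the unsorted cochlea. In the single substructure libraries the order was reversed, with 560 in nerve macrophages and 884 in nerve nonmacrophages. In the wall Susd4 had 0 in macrophages and 156 in nonmacrophages. Csmd2 was at 0 in both nerve and wall macrophages, against 68.5 in nerve and 3.06 in wall nonmacrophages. The neuronal marker sum was 30551 in nerve and 7.66 in wall macrophages, beside 22598 in nerve and 335 in wall nonmacrophages. The part of neurons in these levels was not tested. Among 4 classical pathway copies C1s2 alone passed, lower in old macrophages at a mean of 0 there and 14.8 in nonmacrophages. Of 4 terminal pathway genes only C8g passed, lower in young macrophages (-4.89, adjusted p = 0.0049), and the other 3 averaged at most 4.11 normalized reads in every whole-cochlea sort.

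Between old and young macrophages 5 genes of that list were higher (Mbl2, C8g, Cd46, Csmd2 and Itgax) and 3 lower (Cfp, Serping1 and Vtn), where 24.1% and 5.57% of all genes tested were. Each of the 5 higher genes was at 0 in at least 1 of the 2 young macrophage libraries. Young nerve and wall macrophages had 1155 and 123 of Itgax, 81.0 and 58.2 of C8g, and 18.2 and 4.59 of Cd46. The old macrophage means of these genes were 1193, 65.5 and 15.7. Mbl2 and Csmd2 were at 0 in both nerve and wall macrophages. Between old and young nonmacrophages none passed, and Mbl2 was the 1 gene whose sort difference changed with age (4.03, adjusted p = 0.0052).

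**Figure D5:**
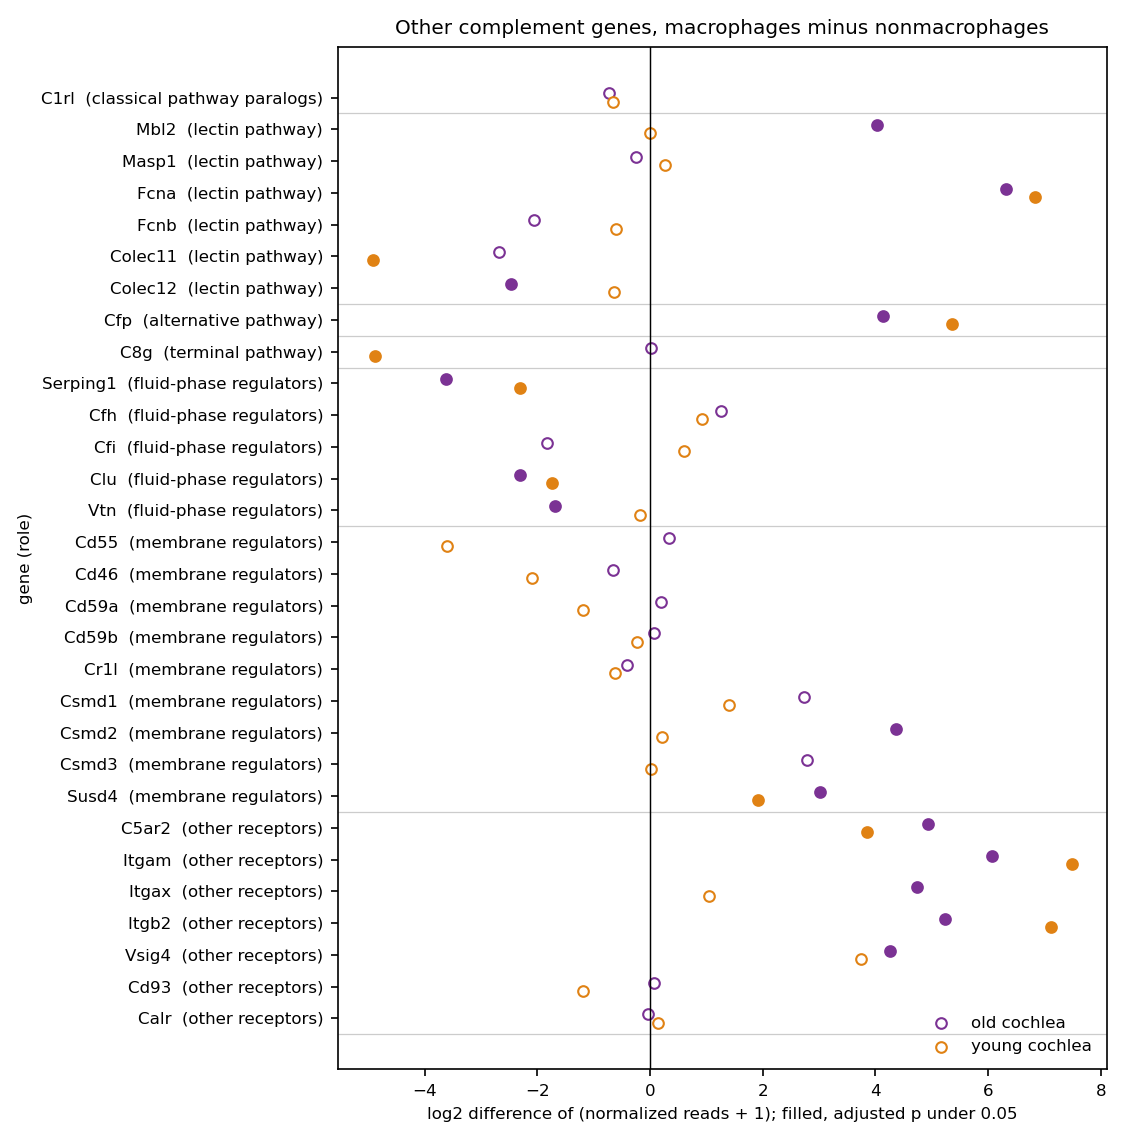
Log2 difference of macrophages minus nonmacrophages (horizontal axis, on normalized reads + 1) for the 30 other complement genes with a mean of at least 20 normalized reads in a whole-cochlea sort, in old (purple) and young (orange) cochlea, grouped by role. Filled points passed limma's adjusted threshold of 0.05. Itgam, Itgb2, C5ar2 and Cfp lie to the right and Serping1 and Clu to the left at both ages, while the receptor gene Calr lies near 0.

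The genes most like each member over the 14 sorted whole-cochlea libraries were found among 14268 genes by Pearson's r on log2(value + 1), given as a description because all genes share the same sort. The C1q chains were close to one another (r = 0.993 for C1qa and C1qc), and C1qc was closest to the Fc receptor gene Fcgr3 (r = 0.996). C5ar1 was closest to Cybb, the phagocyte oxidase gene (r = 0.990), and C3ar1 to the creatine kinase gene Ckmt1 (r = 0.981) and to Cd14 (r = 0.980). C1ra was closest to Colec12 (r = 0.966), C1s1 to Calu (r = 0.988) and C2 to the endothelin receptor gene Ednrb (r = 0.980). The gene closest to C4b was Ubqln1 (r = 0.941).

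The authors' deposited table gave young macrophages over young nonmacrophages fold changes of 1070 for C1qa, 721 for C3ar1, 202 for C5ar1 and -3.58 for C2, a minus sign meaning lower in macrophages. For old over young macrophages that table gave -3.55 for C1qc (p-value 0.000118), 147 for C3 (p-value 2.09e-06) and 2.39 for C4b (p-value 0.0473). It also gave -4.62 for C1qb (p-value 0.0198) and -2.73 for C1qa (p-value 0.0274), so each C1q chain gene was lower in old macrophages there. C1ra had -2.61 (p-value 0.0205) and C3ar1 had -3.07 (p-value 0.0286). C5ar1 (-2.41), C1s1 (-1.69) and C2 (1.05) had larger p-values than these.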

How the data were processed

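Cells from mouse cochleae were sorted by GFP and sequenced after SMARTer Ultra and Nextera XT library preparation, and some samples were sequenced a second time, per the labels' protocols. Such a preparation does not mark strand. The submitters' processing notes name mm10 with DESeq2, TopHat2 and Partek and give no versions. The deposited table holds 1 signal value per gene and library, which the values show to be read counts divided by 1 factor per library and which are called normalized reads here. Of values above 0, 99.89% were whole reads within 0.1 read. The fold changes and p-values of the authors' deposited table were only quoted.

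The 14 libraries of sorted whole cochlea were fitted on the log2(value + 1) scale with 4 group means in limma 3.58.1 (mean-variance trend, robust, R 4.3.3). The filter kept the 18441 genes that reached 1 in 2 or more libraries. Benjamini-Hochberg adjustment ran over all of them, with a threshold of 0.05. The fit was tested on simulated data. Alternatives included quantile scaling, a common total, edgeR 4.0.16 and DESeq2 1.42.0 on the recovered reads, and leaving out each library. Per-kb values used the exons of GENCODE M21. Single libraries got ratios with exact 95% counting intervals and no test.

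Replicates all differed beyond sampling noise, with chi-square values of 48.7 to 884 for each degree of freedom. A count of 0 allows 3 reads, 1.38 to 5.33 normalized reads. The genes and lists were chosen with earlier results of these data known. Other complement genes are named where they averaged at least 20 normalized reads in a whole-cochlea sort, and C1rb, C1s2 and C4a beside their copies after their values were seen. The 3 genes with the highest r were taken as most like a member, and those of C3 are not reported here. Listed genes such as Mbl1, Cfb, Cfd, C8a, C8b and C9 were not analysed here.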

Additional observations from a re-analysis of the deposited data

Results flagged for a closer look

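Values of 3 genes stood apart in groups of 4. C3 in old nonmacrophages had 1043 normalized reads in replicate 19, against 22.1 to 80.1 in the others. C4b in old nonmacrophages had 14159 in the same replicate 19, against 6250.4 to 7227 in the others. C1qb in young nonmacrophages had 845 in replicate 6, against 23.2 to 124 in the others. In 30 such groups 3 were marked by the gap to the nearest library, and chance marks about 1 in 20.

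The macrophage minus nonmacrophage difference of C1qc was smaller in old than in young cochlea: limma's test of the difference itself gave -2.67 on the log2 scale (adjusted p = 0.011). It was also smaller in old cochlea for 2 of 7 macrophage, 1 of 5 T and NK cell and 1 of 5 endothelial markers, and larger for 3 of 6 fibroblast, 2 of 5 Schwann and glial and 1 of 4 osteoblast markers. Their part was not tested.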

How the results depend on the processing

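Of 18 calls on the 10 genes, 9 kept their direction and stayed past the threshold in every alternative run: the 5 higher calls, C1ra and C2 in old cochlea, and C1qa and C1qc in young cochlea. None of the 18 reversed. The number of the 10 genes called in old cochlea was 7, and became 9 under quantile normalization and with only the groups compared, 10 with library quality weights, and 7 to 8 with 1 library left out. In young cochlea it was 7, and fell to 2 with library quality weights (6 to 7 with 1 library left out). Between old and young macrophages it was 2, and became 0 with quality weights, 5 with only the groups compared, 1 with nerve and wall libraries pooled in, and 2 to 4 with 1 library left out. Between old and young nonmacrophages it was 1, and became 0 with edgeR, with quality weights and with pooling, and 0 to 1 with 1 library left out. For the change of the sort difference it was 1, and became 0 under quantile normalization and with quality weights, 2 with a common total, with a filter of 10 and with a pseudocount of 10, 3 with DESeq2, and 1 to 3 with 1 library left out. C1s1 ranged from -1.80 to 6.13 between old and young macrophages, and from -2.76 to 5.17 for the change of the sort difference, as 1 library was left out. Its sign turned without young macrophage replicate 9 and did not without replicate 15. Of the 791 other values of uncalled genes, 39 gained a call and another 39 had the other sign with no call. The cause of these changes was not tested.

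Over all genes, calls in old cochlea numbered 3431, but 11167 with quality weights, 10654 with only the groups compared and 1877 with pooling. In young cochlea they numbered 5814, but 575 with quality weights and 1426 with only the groups compared. Between old and young macrophages they numbered 5468, but 362 with quality weights and 3421 with pooling. Quantile normalization gave 2292 higher and 2277 lower there, against 4441 and 1027, and 2361 higher and 2797 lower in young cochlea, against 1693 and 4121. Between old and young nonmacrophages they numbered 318, but 89 under quantile normalization, 3 with edgeR, 1659 with DESeq2 (521 higher and 1138 lower, against 303 and 15), 190 with quality weights and 175 with only the groups compared. For the change of the sort difference they numbered 1464, but 638 under quantile normalization (415 higher and 223 lower, against 1288 and 176), 2978 with DESeq2, 148 with quality weights and 358 with pooling. With 1 library left out the 5 counts ran from 2369 to 5477, 5028 to 7984, 4206 to 8490, 167 to 3562 and 1116 to 5369.

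No paired analysis was possible because no 2 groups share a replicate number. Young macrophages had 2 libraries, so leaving out 1 assumes that the other varies like the remaining groups. Values of C3 in young whole-cochlea macrophages and of C3ar1 in nonmacrophages rest on few reads, so counting error is large there.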
